A study of Mus musculus with 9 samples.

Results

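The comparison described here sets aged mice given vehicle against young mice. It rests on 6 of the 9 libraries of the series, 3 from each group, chosen by their labels, and on every gene of the deposited table that covers these groups. All mice were wild type on the C57BL/6J background and are called males in the labels. The Aged group aged naturally until 20 months, was then given vehicle once every 2 weeks for 4 months, and was examined at 24 months; the Young group received no treatment that the labels name, and its age is not given there. The remaining 3 libraries, from aged mice given an inhibitor of pyruvate dehydrogenase kinase 4, were not compared. The sheet that holds the table of this comparison is named for bleomycin against control, which the labels of these libraries do not mention. In each library, cells of the lung alveolus, described as mainly fibroblasts, had been collected by laser capture microdissection and combined, and nothing states that libraries of a group came from separate animals, so the p-values measure only the spread between libraries, which may be technical.

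Fibroblasts make the collagen and proteoglycan scaffold of the alveolar wall, and a contractile form of them, the myofibroblast, builds actin bundles that pull on this scaffold. Macrophages are phagocytes that engulf debris and surplus lipid and digest them in lysosomes, acid organelles filled with hydrolases. Both cell types meet in the alveolar wall, where macrophages secrete proteases that cut the matrix fibroblasts lay down, and fibroblasts secrete the growth factor on which macrophages depend.

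Library totals ran over 20637627 to 26660364 counts in Aged and 19456303 to 21543402 counts in Young. Levels are counts scaled to the library total (CPM), given as means ± SD over the 3 libraries of a group or library by library, and log2 ratios are Aged over Young with their standard error (SE). Aged and Young libraries parted along a principal component with 83.6% of the variance. The variation between libraries beyond counting error, estimated with edgeR, was 3.6% within Aged and 10.5% within Young, where replicate 3 stood apart from the others in how its counts followed gene length, with a slope of -0.103 against 0.0216 to 0.0285 in the other Young libraries and 0.0101 to 0.0255 in Aged. A gene was called when its adjusted p, from the quasi-likelihood test of edgeR over 16123 genes, fell under 0.05.

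The marker lists show which cell types these libraries held RNA from. Fibroblast markers summed to 4430 to 4470 CPM in Aged libraries and 5410 to 5870 CPM in Young libraries, and 12 of the 15 listed genes could be tested. Inmt and Tcf21, which mark lung fibroblasts, were nearly absent, with Tcf21 at 0 ± 0 CPM in Aged and 0.448 ± 0.107 CPM in Young and Inmt at 0.0143 ± 0.0248 CPM in Aged and 0.0168 ± 0.0291 CPM in Young. Markers of interstitial macrophages and monocytes summed to 4350 to 4440 CPM in Aged libraries and 60.4 to 77.0 CPM in Young libraries. Lyz2, given below among the gains, made up most of this sum in Aged. Of the 15 tested genes of this list, 13 were called higher and 1, the monocyte gene Ly6c2, lower. Over all genes tested, 21.4% were called higher and 19% lower. Only 6 of the listed genes reached 1 CPM in Young, and members under that level were tested largely through Aged. The count is thus a description. The call of Ly6c2 was lost with DESeq2 and without Aged replicate 1 or 2 or Young replicate 2 or 3. Alveolar macrophage markers summed to 430 to 443 CPM in Aged libraries and 14.6 to 17.2 CPM in Young libraries, a sum that Marco dominated in Aged, while 6 of the 12 listed genes, Car4, Chil3, Ear1, Ear2, Fabp1 and Krt79, were too low to be tested. Of the 6 tested genes of this list, 5 were called higher, with a median log2 ratio of 3.67. Only 2 of the listed genes reached 1 CPM in Young, so this count too is a description. Ccr2, the chemokine receptor of inflammatory monocytes, was also too low to be tested. Markers of neutrophils summed to 245 to 253 CPM in Aged libraries and 20.2 to 20.8 CPM in Young libraries, with all 6 tested genes called higher and S100a9, Ly6g, Elane and Mpo among those too low to be tested, and those of T cells to 26.9 to 28.6 CPM in Aged libraries and 3.50 to 4.59 CPM in Young libraries, with Cd3d, Cd3e and Cd3g too low. Of the listed neutrophil genes, 3 reached 1 CPM in Young, so the count of neutrophil calls is also a description. The NK cell, B cell and erythroid lists summed to 40.4 CPM at most in any of the 6 libraries. In bulk RNA, a change in the number of cells of a type and a change in RNA per cell cannot be told apart.

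**Figure D1:**
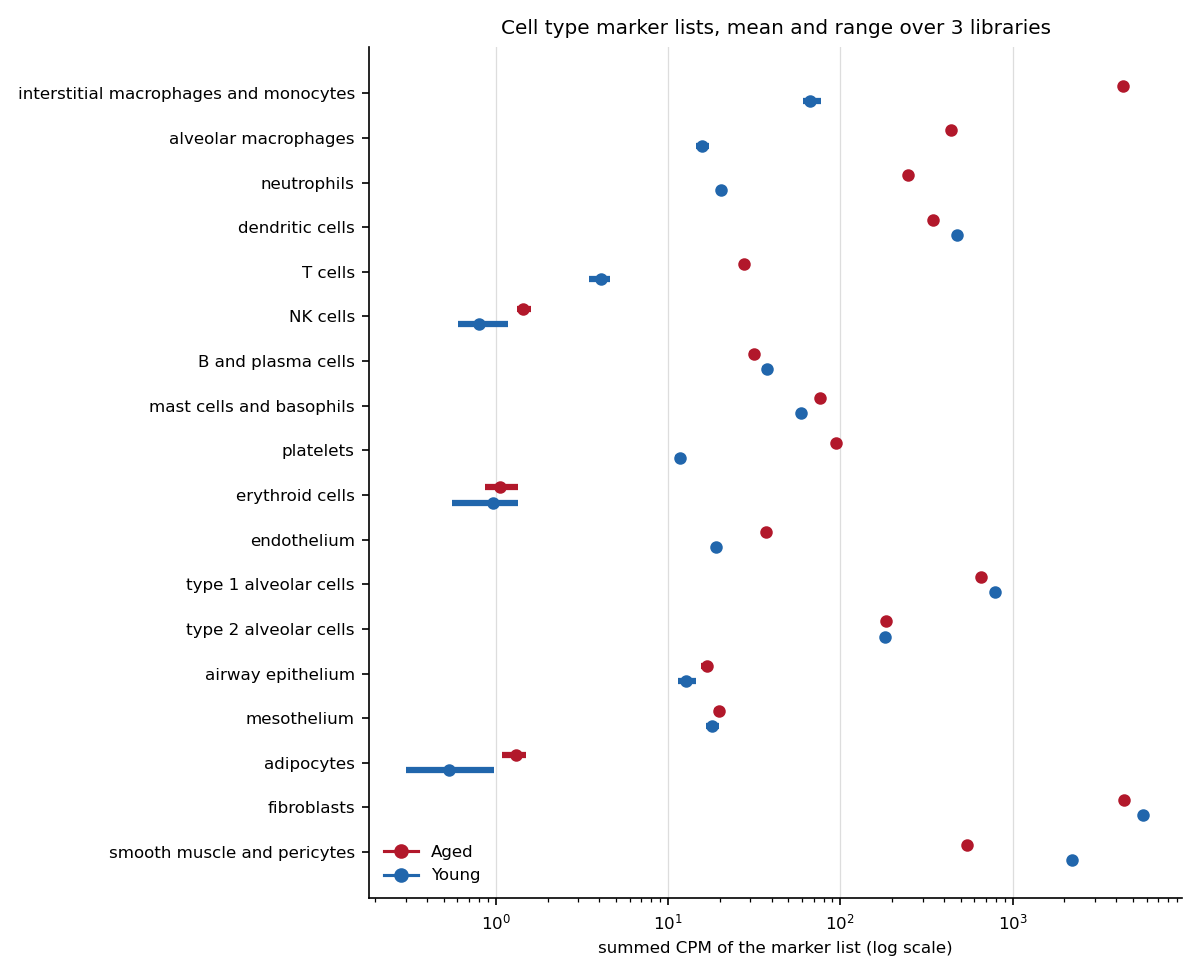
Summed CPM of 18 cell type marker lists (log scale), with Aged above Young; points are means and bars the range over 3 libraries. The interstitial macrophage list sums to 4350 CPM or more in every Aged library, mostly from Lyz2, and to 77.0 CPM or less in every Young library. The smooth muscle and pericyte list lies lower in Aged.

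Both groups also shared features that go beyond the labels. Xist, the RNA that silences an X chromosome in female cells, was at 222, 233 and 203 CPM in the Aged libraries, against 226, 235 and 147 CPM in the Young libraries. Ddx3y, a helicase gene of the Y chromosome, was at 47.1, 45.2 and 44.0 CPM in the Aged libraries, against 42.9, 45.1 and 36.7 CPM in the Young libraries. Eif2s3y, a translation factor gene of the Y chromosome, was at 18.6 ± 0.599 CPM in Aged and 21.1 ± 2.09 CPM in Young. Xist and Y-linked genes were thus present together in all 6 libraries. Hoxd13, a homeobox gene known from the distal limb and the hind end of the body, was at 34.7 ± 1.70 CPM in Aged and 33.7 ± 3.08 CPM in Young. Hoxa13, of the same paralogue group, was at 7.61 ± 0.753 CPM in Aged and 7.91 ± 0.358 CPM in Young, and Scgb1a1 and Sftpc, the secretory genes of airway and type 2 alveolar cells, were at or under 0.217 CPM in mean in both groups. The part of these features in the results below was not tested.

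In all, 3451 genes were called higher in Aged, 21.4% of those tested, and 3060 were called lower, 19%. Counts of called members in the gene lists below are to be read beside these shares. By at least 2-fold, 1504 genes were higher (9.33%) and 272 lower (1.69%). The median log2 ratio over all genes was 0.0093. The direction of calls went with the level in Young. Among 2312 genes at 100 CPM or more in Young, 285 were called higher and 955 lower, and among 7452 genes at 10 to 100 CPM the numbers were 1345 and 1732. Among 2202 genes at 0.1 to 1 CPM, 771 were called higher and 17 lower. All 191 tested genes under 0.1 CPM in Young were called higher, as they passed the filter on low counts only through Aged. For genes at 10 CPM or more in Young, 16.7% were called higher and 27.5% lower, and 184 rose and 136 fell by at least 2-fold. At this level, 1098 genes (11.2%) had a 95% interval within 0.2 of no change on the log2 scale.

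**Figure D2:**
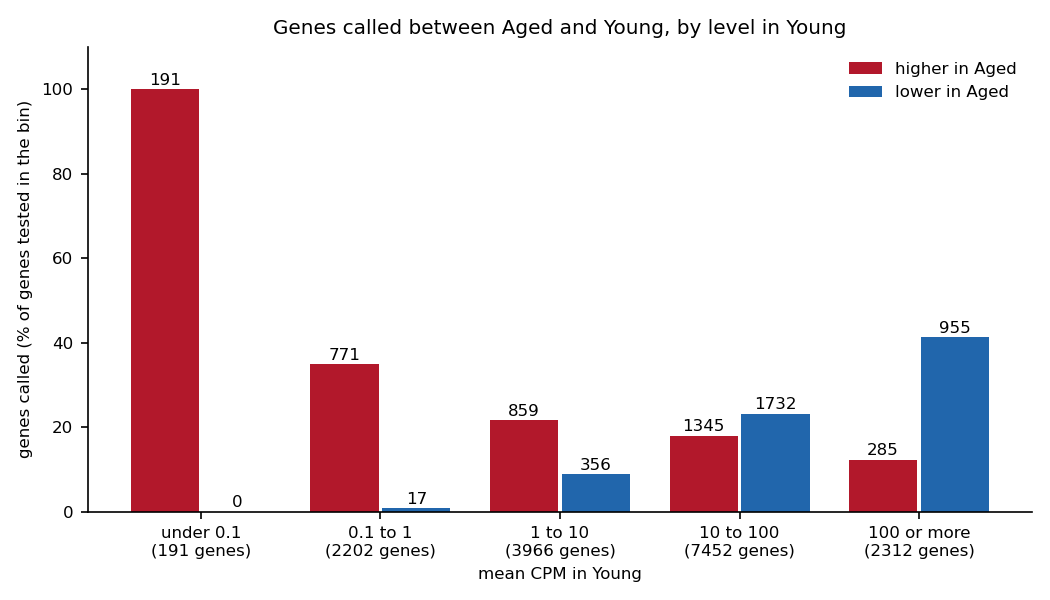
Share of tested genes called higher (left bars) or lower (right bars) in Aged, by mean CPM in Young; numbers above the bars are genes. Calls lower in Aged take 0.772% of genes at 0.1 to 1 CPM and 41.3% of genes at 100 CPM or more.

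The genes that gained most transcripts in Aged included genes of iron storage, phagocyte and lysosomal proteins. Fth1 (ENSMUSG00000024661), the ferritin heavy chain that stores iron, was at 8565, 8498 and 8532 CPM in the Aged libraries, against 2460, 2462 and 2840 CPM in the Young libraries, a log2 ratio of 1.71 (SE 0.06, adjusted p 3.2e-09). Spp1 (ENSMUSG00000029304), osteopontin, a secreted matrix protein made by macrophages and many other cells, was at 7282, 7126 and 7289 CPM in the Aged libraries, against 3068, 3130 and 3481 CPM in the Young libraries, a log2 ratio of 1.15 (SE 0.05, adjusted p 3.7e-08). All Aged libraries lay above all Young libraries for both genes, although both were already abundant in Young. Lyz2 (ENSMUSG00000069516), the lysozyme of macrophages and neutrophils, was at 2711, 2650 and 2728 CPM in the Aged libraries, against 5.15, 5.85 and 9.46 CPM in the Young libraries, a log2 ratio of 8.62 (SE 0.17, adjusted p 3.0e-11). Lyz2 stayed under 10 CPM in every Young library. Saa3, an acute-phase serum amyloid protein, was at 3228 ± 107 CPM in Aged and 1174 ± 114 CPM in Young. Gpnmb, a lysosomal glycoprotein of lipid-laden phagocytes, was at 2247 ± 18.5 CPM in Aged and 497 ± 3.93 CPM in Young. The lysosomal proteases Ctsd, Ctsb and Ctsl were abundant in both groups and rose by 0.78, 1.02 and 0.76 on the log2 scale. Mmp13, a collagenase, was at 1919 ± 17.4 CPM in Aged and 757 ± 20.4 CPM in Young, a log2 ratio of 1.33 (SE 0.04, adjusted p 2.0e-09). The 10 genes with the largest gains, mt-Co1 among them with a log2 ratio of 0.40 (SE 0.04, adjusted p 3.4e-05), held 20.9% of all CPM gained.

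The largest losses were in matrix and cytoskeletal genes. Thbs1 (ENSMUSG00000040152), thrombospondin 1, a matrix protein that activates latent TGF-beta, was at 2716, 2754 and 2677 CPM in the Aged libraries, against 5486, 5573 and 4149 CPM in the Young libraries, a log2 ratio of -0.91 (SE 0.09, adjusted p 2.4e-05). Bgn (ENSMUSG00000031375), biglycan, a small collagen-binding proteoglycan, was at 1964, 2013 and 2019 CPM in the Aged libraries, against 3484, 3438 and 3094 CPM in the Young libraries, a log2 ratio of -0.75 (SE 0.05, adjusted p 9.6e-07). In both genes Young replicate 3 was the lowest Young library, still above all Aged libraries. Sparc, a collagen-binding glycoprotein, was at 1213, 1194 and 1191 CPM in the Aged libraries, against 2191, 2189 and 2088 CPM in the Young libraries, a log2 ratio of -0.86 (SE 0.04, adjusted p 6.6e-08). Fn1, fibronectin, was at 3572, 3750 and 3696 CPM in the Aged libraries, against 5761, 5678 and 3556 CPM in the Young libraries, a log2 ratio of -0.46 (SE 0.14, adjusted p 0.0277). Young replicate 3 lay within the Aged range of Fn1, and its call was lost when any library other than Young replicate 3 was left out (adjusted p 0.0739 to 0.0955). Vim and Actg1, the vimentin filament and cytoplasmic actin genes, had log2 ratios of -0.53 and -0.51. Timp2, an inhibitor of metalloproteinases, was at 1911 ± 58.3 CPM in Aged and 2762 ± 153 CPM in Young. Col1a1, the main collagen of scar and bone, was at 2256 ± 18.9 CPM in Aged and 3091 ± 131 CPM in Young. Prss23, a secreted serine protease, was lower, with 378 ± 4.46 CPM in Aged and 1019 ± 24.2 CPM in Young, a log2 ratio of -1.45 (SE 0.04, adjusted p 1.3e-09).

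**Figure D3:**
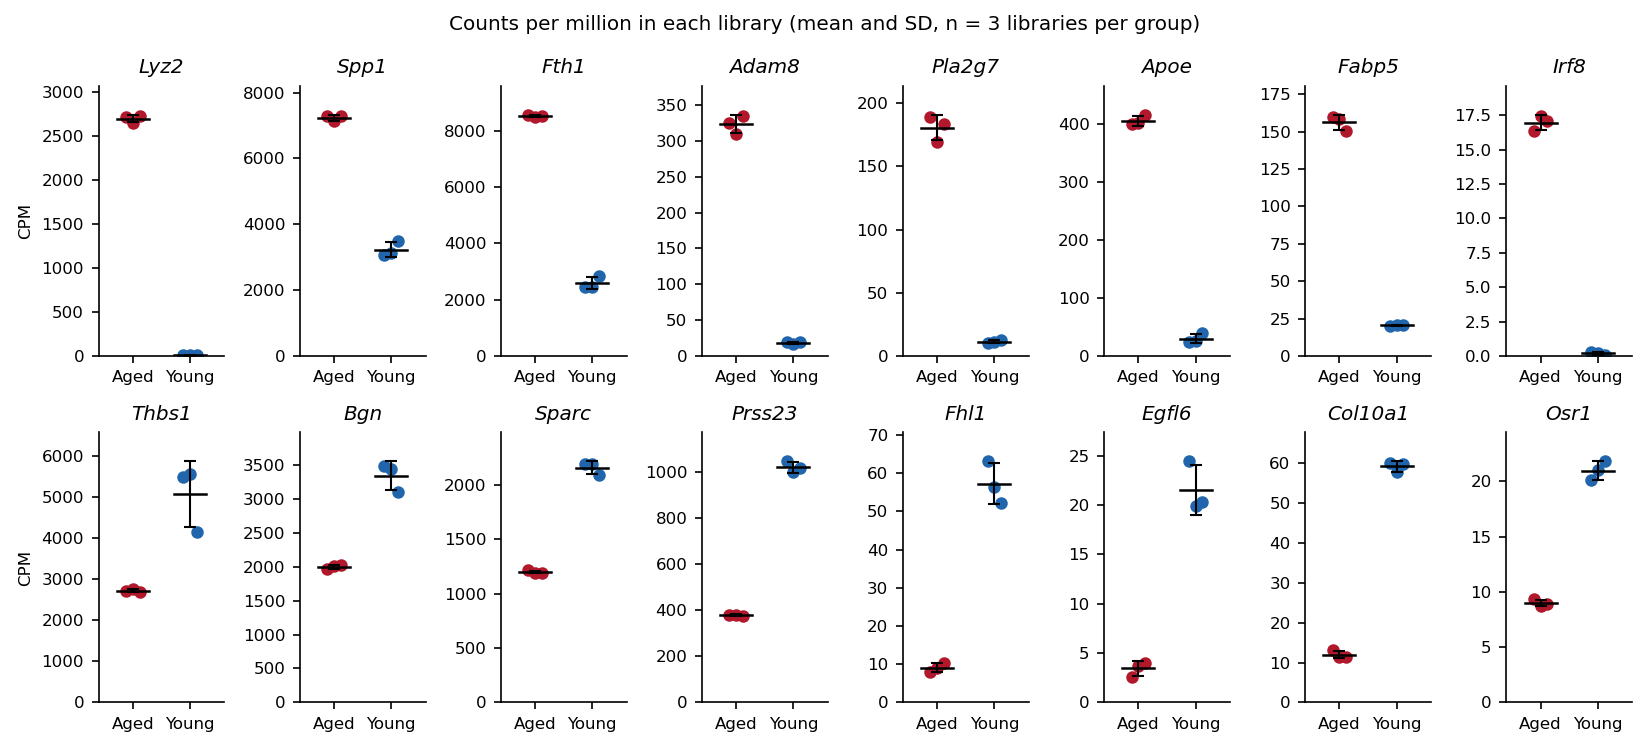
CPM in each library for 16 genes, Aged left of Young; points are libraries, lines the mean and error bars the SD (n = 3). The 3 Aged libraries lie above the Young libraries in the 8 genes of the upper row and below them in the 8 genes of the lower row.

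Among genes that Young already expressed at 10 CPM or more, the largest folds upward were those of phagocyte genes. Adam8 (ENSMUSG00000025473), a cell-surface protease of leukocytes, was at 325, 310.2 and 336 CPM in the Aged libraries, against 19.4, 16.1 and 19.2 CPM in the Young libraries, a log2 ratio of 4.14 (SE 0.08, adjusted p 3.2e-11). Pla2g7 (ENSMUSG00000023913), the phospholipase that breaks down platelet-activating factor, was at 189, 169 and 183 CPM in the Aged libraries, against 9.94, 11.3 and 12.9 CPM in the Young libraries, a log2 ratio of 3.98 (SE 0.09, adjusted p 1.4e-10). Apoe (ENSMUSG00000002985), the lipid-carrying apolipoprotein E, was at 400.2, 401 and 416 CPM in the Aged libraries, against 24.3, 26.1 and 38.8 CPM in the Young libraries, a log2 ratio of 3.76 (SE 0.14, adjusted p 7.3e-09). In Apoe, Young replicate 3 was the highest Young library, yet the groups were far apart. Fabp5, a fatty acid-binding protein, was at 159.7, 159 and 151 CPM in the Aged libraries, against 20.2, 20.5 and 21.0 CPM in the Young libraries, a log2 ratio of 2.91 (SE 0.06, adjusted p 5.0e-11). Cd68, a lysosomal membrane protein of macrophages, was at 208 ± 1.6 CPM in Aged and 24.8 ± 3.15 CPM in Young. Ctsc, the protease that activates granule enzymes of leukocytes, was at 112 ± 3.45 CPM in Aged and 13.7 ± 1.28 CPM in Young. Syk, the kinase behind Fc receptor signals, was at 120.3 ± 4.65 CPM in Aged and 16.2 ± 0.604 CPM in Young. Prex1, an activator of Rac in leukocytes, was at 73.6 ± 3.07 CPM in Aged and 10.2 ± 1.63 CPM in Young. Slc7a11, the cystine importer that feeds glutathione synthesis, was at 144 ± 3.38 CPM in Aged and 19.8 ± 2.52 CPM in Young, a log2 ratio of 2.85 (SE 0.09, adjusted p 1.1e-09).

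The 10 largest folds downward at this level were those of Lgr5, Acta1, Itgbl1, C1qtnf3, Fhl1, Egfl6, Aqp5, Igfbp2, Acta2 and Col10a1. Lgr5, an R-spondin receptor, was at 0.788, 1.07 and 1.11 CPM in the Aged libraries, against 14.7, 14.9 and 13.5 CPM in the Young libraries, a log2 ratio of -3.88 (SE 0.16, adjusted p 1.1e-08). Itgbl1, an integrin-like secreted protein, was at 4.56 ± 0.706 CPM in Aged and 37.6 ± 1.92 CPM in Young. C1qtnf3, a secreted relative of complement C1q, was at 2.51 ± 0.612 CPM in Aged and 16.3 ± 2.59 CPM in Young. Igfbp2, which binds insulin-like growth factors, was at 3.39 ± 0.409 CPM in Aged and 19.8 ± 0.186 CPM in Young. Acta2, smooth muscle actin, was at 194 ± 6.62 CPM in Aged and 1133 ± 38.4 CPM in Young. Fhl1 (ENSMUSG00000023092), a LIM-domain protein of muscle, was at 7.84, 9.06 and 10.3 CPM in the Aged libraries, against 63.1, 56.4 and 52.3 CPM in the Young libraries, a log2 ratio of -2.68 (SE 0.11, adjusted p 1.2e-08). Egfl6 (ENSMUSG00000000402), a secreted EGF-repeat matrix protein, was at 2.63, 3.69 and 4.02 CPM in the Aged libraries, against 24.4, 19.9 and 20.3 CPM in the Young libraries, a log2 ratio of -2.67 (SE 0.15, adjusted p 2.0e-07). Col10a1 (ENSMUSG00000039462), the collagen known from hypertrophic cartilage, was at 13, 11.3 and 11.5 CPM in the Aged libraries, against 60.1, 57.7 and 59.7 CPM in the Young libraries, a log2 ratio of -2.32 (SE 0.08, adjusted p 1.9e-09). These genes were at a fraction of their Young level in every Aged library. Acta1 (ENSMUSG00000031972), skeletal muscle actin, was at 0.97, 1.42 and 1.02 CPM in the Aged libraries, against 10.8, 11.6 and 8.12 CPM in the Young libraries, a log2 ratio of -3.17 (SE 0.21, adjusted p 7.1e-07). Aqp5, a water channel known from type 1 alveolar and gland cells, was at 2.80 ± 0.310 CPM in Aged and 16.6 ± 1.71 CPM in Young, a log2 ratio of -2.58 (SE 0.13, adjusted p 8.5e-08), although Ager, another type 1 gene, was at 0.561 ± 0.312 CPM in Aged and 0.544 ± 0.234 CPM in Young and was not called.

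Promoter sequences were looked up to show what stands before the genes with the largest changes. RefSeq windows on build GRCm38.p6, 250 bases before the annotated start and read 5′ to 3′ on the strand of the gene, were found for 31 of the 39 genes with the largest gains, losses or folds. Each window was searched on both strands for 7 patterns, with the share of all 32851 windows that hold each in brackets: PU.1, GAGGAAGT (2.44%), the CArG box (1.47%), the interferon response, GAAANNGAA (7.13%), AP-1, TGANTCA (6.75%), the E-box, CACGTG (6.02%), the antioxidant response, TGACNNNGC (10.2%), and NF-kB, GGAATTTCC (0.286%). Of the 31 genes, 5 had an E-box, 4 the AP-1 pattern, 4 the interferon response, 3 the antioxidant response, 3 a CArG box, 2 the PU.1 pattern and 1 the NF-kB pattern. A gene counts here if any of its windows holds the pattern, whereas the shares in brackets are of single windows. Counts and shares are thus unlike measures, and no comparison was made. The windows with the PU.1 pattern and the CArG box are shown, a choice made after the matches were seen, as their factors are known from myeloid and actin genes. A match to the letters bound by the myeloid factor PU.1 was found before Ctsc (chr7:88277835-88278084, plus strand, from base -151) and Spp1 (chr5:104434861-104435110, plus strand, from base -113). Both genes were higher in Aged, and the matched letters are in capitals, on the opposite strand for Ctsc. The Spp1 window also holds the interferon response pattern from base -156, apart from these letters.
Ctsc: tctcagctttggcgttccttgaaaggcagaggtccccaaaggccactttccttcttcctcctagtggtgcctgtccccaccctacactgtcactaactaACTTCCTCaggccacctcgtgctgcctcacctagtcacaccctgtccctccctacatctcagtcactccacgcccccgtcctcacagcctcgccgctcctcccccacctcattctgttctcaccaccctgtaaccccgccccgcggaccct
Spp1: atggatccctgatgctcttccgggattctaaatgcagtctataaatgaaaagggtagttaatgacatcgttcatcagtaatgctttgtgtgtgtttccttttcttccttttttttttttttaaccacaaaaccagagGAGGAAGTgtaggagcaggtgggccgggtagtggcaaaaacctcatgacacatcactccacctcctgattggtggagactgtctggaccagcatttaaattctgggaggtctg
A CArG box, the element bound by serum response factor, was found before Acta1 (chr8:123894776-123895025, minus strand, from base -73), Actg1 (chr11:120348496-120348745, minus strand, from base -90) and Fhl1 (chrX:56779433-56779682, plus strand, from base -102), all lower in Aged. The Actg1 window also holds an E-box from base -141.
Acta1: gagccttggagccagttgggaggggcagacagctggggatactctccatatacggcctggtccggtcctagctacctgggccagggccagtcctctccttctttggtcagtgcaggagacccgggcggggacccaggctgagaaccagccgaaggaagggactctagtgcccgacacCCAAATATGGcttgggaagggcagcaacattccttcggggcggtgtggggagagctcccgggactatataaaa
Actg1: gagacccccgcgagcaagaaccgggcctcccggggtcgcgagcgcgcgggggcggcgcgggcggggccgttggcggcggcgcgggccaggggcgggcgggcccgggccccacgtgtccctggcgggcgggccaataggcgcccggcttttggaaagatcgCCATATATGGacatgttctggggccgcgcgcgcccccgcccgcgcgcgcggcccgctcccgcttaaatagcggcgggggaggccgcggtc
Fhl1: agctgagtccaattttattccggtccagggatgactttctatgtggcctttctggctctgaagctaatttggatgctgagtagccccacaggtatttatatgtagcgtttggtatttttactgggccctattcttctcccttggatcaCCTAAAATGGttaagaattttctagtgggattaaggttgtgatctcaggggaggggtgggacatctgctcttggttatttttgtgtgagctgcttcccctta
These matches are descriptions of letters and say nothing of binding in these cells. Windows were found for 1065 of the 1504 genes higher by at least 2-fold and 171 of the 272 lower, under 80% of each, so a comparison of motif shares between them is void.

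Transcription factors of the myeloid lineage were mostly higher in Aged. Spi1 (ENSMUSG00000002111), which encodes PU.1, was at 61.4, 64.8 and 61.5 CPM in the Aged libraries, against 0.101, 0 and 0.103 CPM in the Young libraries, a log2 ratio of 9.76 (SE 0.20, adjusted p 4.0e-11). Irf8 (ENSMUSG00000041515), a partner of PU.1 in monocytes and dendritic cells, was at 16.4, 17.4 and 17.1 CPM in the Aged libraries, against 0.303, 0.186 and 0.103 CPM in the Young libraries, a log2 ratio of 6.37 (SE 0.21, adjusted p 1.8e-09). Ikzf1, the lymphoid and myeloid factor Ikaros, was at 13.3 ± 0.563 CPM in Aged and 0.281 ± 0.0640 CPM in Young, a log2 ratio of 5.53 (SE 0.19, adjusted p 2.7e-09). Of 21 listed myeloid transcription factors, 16 could be tested, 14 were called higher, against 21.4% of all genes, and 1, Klf4, was called lower, with a median log2 ratio of 1.38. Factors that Young also expressed moved less. Maf, a leucine zipper factor of macrophages and T cells, was at 45.2 ± 1.68 CPM in Aged and 14.6 ± 0.527 CPM in Young, a log2 ratio of 1.62 (SE 0.07, adjusted p 2.2e-08). Irf5, which drives inflammatory cytokine genes, was at 28.1 ± 0.504 CPM in Aged and 6.00 ± 0.539 CPM in Young. Tfec, a macrophage relative of the lysosomal factor TFEB, was at 16.1 ± 1.53 CPM in Aged and 5.06 ± 0.453 CPM in Young. Cebpa, which acts in myeloid cells, fat and liver, was at 27.5 ± 2.36 CPM in Aged and 7.66 ± 0.944 CPM in Young. Klf4, a factor of barrier epithelium, muscle and monocytes, was at 66.4 ± 1.58 CPM in Aged and 94.3 ± 4.59 CPM in Young, a log2 ratio of -0.52 (SE 0.06, adjusted p 5.7e-05).

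The receptors and signalling proteins of blood cells followed the same direction. Of 10 listed Fc receptor genes, whose products bind antibodies on phagocytes, 7 were tested and all 7 were called higher; 7 of the listed genes reached 1 CPM in Aged and 1, Fcgrt, in Young. The others passed the filter on low counts only through Aged, so the count is a description. Fcgr3 (ENSMUSG00000059498) was at 144, 139 and 141 CPM in the Aged libraries, against 0.202, 0.0928 and 0.360 CPM in the Young libraries, a log2 ratio of 9.32 (SE 0.15, adjusted p 8.3e-12). Fcer1g, the signalling chain that Fc receptors share, was at 63.1 ± 0.747 CPM in Aged and 0.0962 ± 0.0930 CPM in Young. Fcgr2b, the inhibitory receptor, was at 25.9 ± 1.44 CPM in Aged and 0.147 ± 0.0417 CPM in Young. Fcgr4 had 1009 counts over the Aged libraries and 1 count over the Young libraries. Fcgrt, which recycles antibody in many cell types, had the smallest change, a log2 ratio of 0.65 (SE 0.08, adjusted p 1.3e-04). Among 29 kinases and adaptors of blood cells, 28 were called higher and 1 lower, 11 of them at 1 CPM or more in Young, with a median of 4.60. This count too is a description, as most members were low in Young. Of the 6 members at 10 CPM or more in Young, 5 were called higher and 1 lower, against 16.7% and 27.5% of all genes at that level. Pik3ap1, an adaptor of phosphoinositide 3-kinase in leukocytes, was at 83.0, 89.8 and 84.1 CPM in the Aged libraries, against 0.303, 0.279 and 0.360 CPM in the Young libraries, a log2 ratio of 8.06 (SE 0.12, adjusted p 4.5e-12). Hcls1, a cortactin relative of blood cells, was at 79.3 ± 1.15 CPM in Aged and 0.296 ± 0.0830 CPM in Young. Cyth4, an activator of ARF proteins in leukocytes, was at 58.5 ± 0.949 CPM in Aged and 0.380 ± 0.0478 CPM in Young. The gene called lower, Arhgdib, was abundant in both groups at 235 ± 2.47 CPM in Aged and 272 ± 31.7 CPM in Young, and its call was lost when any Aged library was left out (adjusted p 0.0987 to 0.119).

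Leukocyte integrins, which anchor phagocytes to vessel walls and matrix, were far higher in Aged. Of 11 listed genes, 9 were tested, 8 were called higher and 1 lower, 3 of them at 1 CPM or more in Young, with a median log2 ratio of 6.09. Members under 1 CPM in Young were tested largely through their counts in Aged. The count is thus a description, beside 21.4% of all genes called higher. Itgam (ENSMUSG00000030786), the CD11b chain, was at 209.7, 212 and 213 CPM in the Aged libraries, against 0.101, 0.279 and 0.154 CPM in the Young libraries, a log2 ratio of 10.13 (SE 0.13, adjusted p 2.3e-12). Itgb2 (ENSMUSG00000000290), its partner chain CD18, was at 117, 119 and 124 CPM in the Aged libraries, against 2.17, 1.90 and 1.95 CPM in the Young libraries, a log2 ratio of 5.88 (SE 0.09, adjusted p 4.5e-12). Both chains of this complement receptor thus rose together, and Itgb2 had the higher level in Young. Itgal, the CD11a chain, was at 54.4 ± 2.22 CPM in Aged and 0.554 ± 0.227 CPM in Young, Itgax, the CD11c chain, at 17.1 ± 0.846 CPM in Aged and 0.0619 ± 0.107 CPM in Young. Fermt3, the kindlin that activates integrins in blood cells, was at 49.1 ± 0.514 CPM in Aged and 0.717 ± 0.344 CPM in Young. Selplg, a ligand of selectins, was at 26.6 ± 1.32 CPM in Aged and 0.133 ± 0.0629 CPM in Young. Itga4, which fibroblasts also use, rose less, a log2 ratio of 1.02 (SE 0.13, adjusted p 9.5e-05). Itgb7, a gut-homing chain, was at 5.75 ± 0.700 CPM in Aged and 8.22 ± 1.00 CPM in Young, and its call was lost without Aged replicate 1 (adjusted p = 0.0648).

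Scavenger receptors take up modified lipoproteins and debris. Of 24 listed receptors and lectins, 22 were tested, 18 were called higher and 1, Axl, lower. Only 7 of these genes reached 1 CPM in Young, and most entered the test through Aged. Among the 5 at 10 CPM or more in Young, 1 was called higher and 1 lower, against 16.7% and 27.5% of all such genes. The median log2 ratio was 6.72. Msr1 (ENSMUSG00000025044), scavenger receptor A, was at 197, 187 and 187 CPM in the Aged libraries, against 0.303, 0.418 and 0.411 CPM in the Young libraries, a log2 ratio of 8.94 (SE 0.11, adjusted p 2.3e-12). Cd36 (ENSMUSG00000002944), a receptor for oxidised lipoprotein and fatty acids, was at 359, 353 and 357 CPM in the Aged libraries, against 0.454, 0.882 and 0.565 CPM in the Young libraries, a log2 ratio of 9.10 (SE 0.11, adjusted p 2.3e-12). Both stayed under 1 CPM in every Young library. Axl, a receptor for dying cells that fibroblasts express, was at 643 ± 6.15 CPM in Aged and 737 ± 45.9 CPM in Young, and its call was lost without Aged replicate 1 (adjusted p = 0.054).

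The lipid-handling genes that phagocytes switch on through the receptor TREM2 were listed apart, and 13 of the 15 were at 10 CPM or more in Young. All 15 were tested, 14 were called higher and 1 lower, with a median log2 ratio of 2.10. Of the 13 at 10 CPM or more, 12 were called higher and 1 lower, against 16.7% and 27.5% of all such genes. Trem2 (ENSMUSG00000023992) was at 68.0, 67.4 and 68.8 CPM in the Aged libraries, against 2.32, 2.18 and 2.78 CPM in the Young libraries, a log2 ratio of 4.80 (SE 0.09, adjusted p 3.2e-11). Gpnmb, given above among the gains, was at 2229, 2246 and 2266 CPM in the Aged libraries, against 499, 499 and 492 CPM in the Young libraries, a log2 ratio of 2.17 (SE 0.04, adjusted p 3.5e-11). Both lipid-handling genes were above 1 CPM in every library. Cd63, a tetraspanin of late endosomes and the only member called lower, was at 724 ± 9.06 CPM in Aged and 889 ± 96.2 CPM in Young, a log2 ratio of -0.31 (SE 0.07, adjusted p 0.0053).

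Lysosomal genes moved both ways. Of 39 lysosomal hydrolase genes tested, 22 were called higher and 7 lower, with a median of 0.36. Of the 34 at 10 CPM or more in Young, 17 were called higher and 7 lower, against 16.7% and 27.5% of all such genes. Ctss (ENSMUSG00000038642), cathepsin S, a protease of antigen-presenting cells, was at 307, 294 and 308 CPM in the Aged libraries, against 0.151, 0.371 and 0.154 CPM in the Young libraries, a log2 ratio of 10.31 (SE 0.13, adjusted p 2.3e-12). Acp5, the tartrate-resistant phosphatase of osteoclasts and macrophages, was at 76.0, 72.7 and 71.8 CPM in the Aged libraries, against 1.72, 1.49 and 2.00 CPM in the Young libraries, a log2 ratio of 5.39 (SE 0.10, adjusted p 2.5e-11). These phagocyte hydrolases rose by far more than Ctsd, Ctsb and Ctsl did. Ctsk (ENSMUSG00000028111), cathepsin K, a collagen-cutting protease of osteoclasts and fibroblasts, was lower, with 57.6, 60.3 and 55.7 CPM in the Aged libraries, against 128, 128 and 138 CPM in the Young libraries, a log2 ratio of -1.20 (SE 0.06, adjusted p 7.5e-08). Asah1, acid ceramidase, was lower, with 187 ± 4.98 CPM in Aged and 257 ± 11.6 CPM in Young, a log2 ratio of -0.48 (SE 0.05, adjusted p 4.4e-05). Of 25 genes of the lysosomal membrane and its proton pump, 8 were called higher and 7 lower (3 lower without Aged replicate 2), with a median of -0.012. In Young, 23 of these were at 10 CPM or more, 7 called higher and 7 lower, against the same 16.7% and 27.5%. The d subunits of the pump differed in sign. Atp6v0d2, the d subunit of osteoclasts and macrophages, was at 26.1 ± 1.55 CPM in Aged and 0.216 ± 0.182 CPM in Young, a log2 ratio of 6.88 (SE 0.23, adjusted p 2.7e-09). Atp6v0d1, the d subunit found in most cells, was at 155 ± 3.88 CPM in Aged and 216 ± 19.9 CPM in Young, a log2 ratio of -0.49 (SE 0.07, adjusted p 2.4e-04). Tcirg1, the a3 subunit of osteoclasts, was at 186 ± 4.06 CPM in Aged and 108 ± 4.73 CPM in Young. Lamp1, the main glycoprotein of the lysosomal membrane, was at 1131 ± 18.5 CPM in Aged and 1329 ± 20.1 CPM in Young, a log2 ratio of -0.25 (SE 0.04, adjusted p 0.00104).

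**Figure D4:**
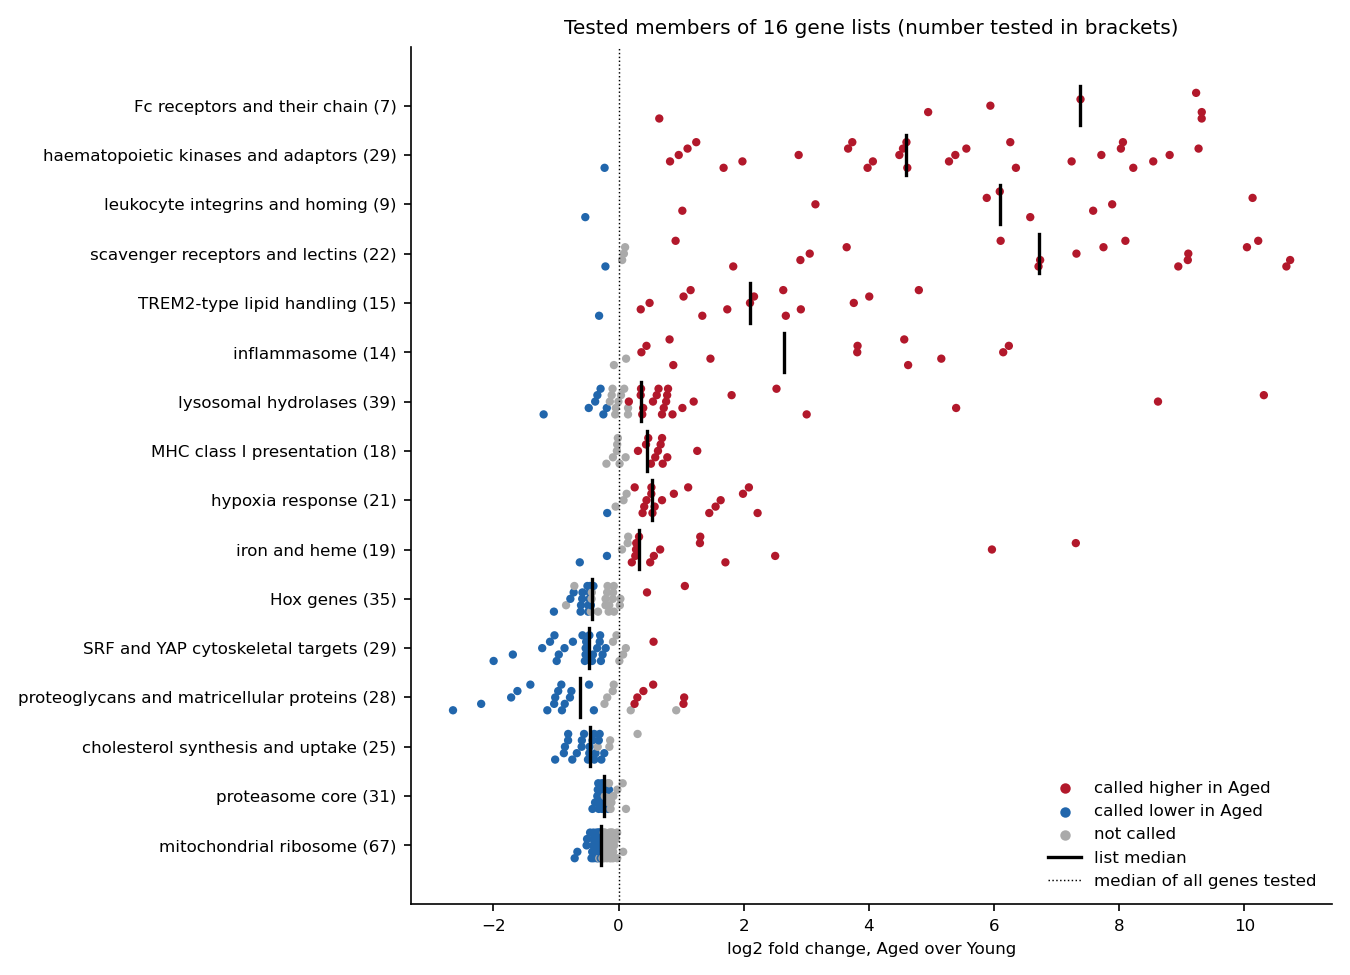
Log2 fold changes, Aged over Young, of the tested members of 16 gene lists; colours mark genes called higher, called lower and not called, black bars are list medians and the dotted line is the median of all genes. Members of the phagocyte lists reach folds above 8 on this scale, while all members of the proteasome and mitochondrial ribosome lists lie within 1 of no change.

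MHC class II molecules present antigen to helper T cells. Of 11 listed class II genes, 7 were tested and 1, Cd74, the invariant chain that guides class II molecules, was called higher, at 15.9, 15.9 and 16.9 CPM in the Aged libraries, against 0.757, 0.186 and 0.411 CPM in the Young libraries, a log2 ratio of 5.16 (SE 0.24, adjusted p 4.1e-08). H2-Ab1, a class II beta chain, was at 1.26 ± 0.0830 CPM in Aged and 0.749 ± 0.413 CPM in Young and H2-Eb1 at 1.13 ± 0.217 CPM in Aged and 1.18 ± 0.256 CPM in Young, neither of them called (adjusted p 0.153 and 0.879). Most of the summed level of this list came from Ifi30, a lysosomal thiol reductase, at 66.5 ± 3.12 CPM in Aged and 69.2 ± 8.31 CPM in Young, and H2-DMa, a peptide exchange chain, at 12 ± 0.499 CPM in Aged and 12.4 ± 1.44 CPM in Young, neither of them called. H2-Ab1 was called when Young replicate 1 was left out (adjusted p = 0.0299). H2-Aa, H2-Oa, H2-Ob and Ciita, the class II master factor, were too low to be tested. Class I genes, which all nucleated cells use, behaved otherwise: 11 of 18 were called higher and 0 lower (0 also at an unadjusted p under 0.05 in edgeR and 0 with DESeq2), with a median of 0.46. H2-D1 (ENSMUSG00000073411), a classical class I heavy chain, was at 876, 862 and 881 CPM in the Aged libraries, against 521, 527 and 555 CPM in the Young libraries, a log2 ratio of 0.70 (SE 0.05, adjusted p 7.9e-07). H2-Q7 and H2-T23, non-classical class I genes, rose by 0.78 and 0.67 on the log2 scale. Reads of these closely related genes may be split between copies in ways the tables do not show.

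Many sensors of microbial and damage signals were higher in Aged. Of 22 listed Toll-like receptor genes, which sense microbial molecules, and their adaptors, 20 were tested, 13 were called higher and 1 lower. At 10 CPM or more in Young, 5 of 11 members were called higher and 1 lower, against 16.7% and 27.5% of all genes at that level. Cd14 (ENSMUSG00000051439), the co-receptor for bacterial lipopolysaccharide, was at 178, 176 and 177 CPM in the Aged libraries, against 8.93, 8.22 and 7.86 CPM in the Young libraries, a log2 ratio of 4.39 (SE 0.07, adjusted p 8.3e-12). Tlr13 (ENSMUSG00000033777), a mouse sensor of bacterial ribosomal RNA, was at 73.6, 66.6 and 69.0 CPM in the Aged libraries, against 0.303, 0.232 and 0.0514 CPM in the Young libraries, a log2 ratio of 8.41 (SE 0.18, adjusted p 5.4e-11). Tlr7, a sensor of single-stranded RNA, was at 15.5 ± 0.257 CPM in Aged and 0.178 ± 0.0907 CPM in Young. These receptors sat below 10 CPM in Young in every library. Irak1, a kinase of Toll-like receptor signalling, was at 81.6 ± 2.26 CPM in Aged and 92.9 ± 4.10 CPM in Young, and its call was lost without Aged replicate 1 or 3 (adjusted p 0.0828 and 0.0783). Among 14 tested inflammasome genes, which cut and release interleukin 1, 12 were called higher and 0 lower (0 at an unadjusted p under 0.05 in edgeR and 0 with DESeq2), with a median of 2.64. Over all genes, 21.4% were called higher. Only 8 of the listed inflammasome genes reached 1 CPM in Young, and 2 of the 3 at 10 CPM or more were called higher. Nlrp3 (ENSMUSG00000032691), the inflammasome sensor, was at 14.0, 15.0 and 15.8 CPM in the Aged libraries, against 0.555, 0.557 and 0.668 CPM in the Young libraries, a log2 ratio of 4.63 (SE 0.16, adjusted p 2.8e-09). Casp1, the caspase that cuts interleukin 1 beta, was at 18.0 ± 1.14 CPM in Aged and 0.244 ± 0.0874 CPM in Young. Naip2, a sensor of bacterial secretion rod proteins, was at 19.7 ± 0.965 CPM in Aged and 1.38 ± 0.435 CPM in Young.

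Il1b (ENSMUSG00000027398), interleukin 1 beta, was at 56.2, 61.6 and 54.5 CPM in the Aged libraries, against 0, 0.232 and 0 CPM in the Young libraries, a log2 ratio of 9.34 (SE 0.27, adjusted p 8.1e-10). Il1rn (ENSMUSG00000026981), the natural antagonist of the same receptor, was at 230.1, 224 and 230.3 CPM in the Aged libraries, against 36.7, 36.5 and 37.9 CPM in the Young libraries, a log2 ratio of 2.61 (SE 0.05, adjusted p 5.3e-11). Agonist and antagonist thus rose together. Il1a was at 71.0 ± 4.17 CPM in Aged and 4.44 ± 0.395 CPM in Young, and in the whole list 8 of 14 tested genes of the interleukin 1 family were called higher and 0 lower, with 0 lower also at an unadjusted p under 0.05 in edgeR and with DESeq2. The shares over all genes were 21.4% higher and 19% lower. Tnf, tumour necrosis factor, had 1420 counts over the Aged libraries and 3 over the Young libraries. Tnfrsf12a, the receptor for the cytokine TWEAK on fibroblasts, was lower, with 156 ± 3.15 CPM in Aged and 244 ± 12.8 CPM in Young, as was Tnfrsf11b, the decoy osteoprotegerin that blocks RANKL, at 15.9 ± 1.01 CPM in Aged and 25.6 ± 3.78 CPM in Young. Of 23 tested genes of the TNF superfamily, 12 were called higher and 4 lower (2 lower without Aged replicate 1). Among the 11 at 10 CPM or more in Young, 3 were called higher and 4 lower, against 16.7% and 27.5% of all genes at that level.

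Chemokines moved in both directions. Of 32 listed CC and CXC chemokines, 24 were tested, 16 were called higher and 3 lower, with a median of 0.99. At 10 CPM or more in Young, 5 of 11 members were called higher and 3 lower, against 16.7% and 27.5% of all such genes. Ccl6 (ENSMUSG00000018927), a rodent chemokine of macrophages, was at 424, 396 and 415 CPM in the Aged libraries, against 0.202, 0.371 and 0.463 CPM in the Young libraries, a log2 ratio of 10.18 (SE 0.12, adjusted p 2.3e-12). Ccl9 (ENSMUSG00000019122), a rodent chemokine of macrophages and osteoclasts, was at 269, 274 and 268 CPM in the Aged libraries, against 3.23, 2.55 and 2.72 CPM in the Young libraries, a log2 ratio of 6.56 (SE 0.08, adjusted p 2.3e-12). The 3 genes called lower were Cxcl14, Cxcl12 and Ccl20. Cxcl12 (ENSMUSG00000061353), the stromal chemokine that holds blood stem cells in their niche, was at 39.0, 40.4 and 41.4 CPM in the Aged libraries, against 111, 103 and 99.5 CPM in the Young libraries, a log2 ratio of -1.39 (SE 0.06, adjusted p 3.6e-08). Cxcl14, a chemokine of skin and connective tissue, was at 22.4 ± 0.967 CPM in Aged and 81.5 ± 0.232 CPM in Young, a log2 ratio of -1.88 (SE 0.06, adjusted p 2.0e-09). Ccl20, which attracts cells through the receptor CCR6, was at 23 ± 0.930 CPM in Aged and 77.2 ± 6.25 CPM in Young.

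Colony-stimulating factors govern macrophage survival and number. Of 13 tested ligands and receptors, 9 were called higher and 1 lower, against 21.4% and 19% of all genes, with a median of 2.54. Only 2 members were at 10 CPM or more in Young, 1 called higher and 1 lower. The other calls were of genes under that level. Csf1r (ENSMUSG00000024621), the receptor for the factor on which macrophages depend, was at 126, 129 and 131 CPM in the Aged libraries, against 5.30, 5.48 and 4.78 CPM in the Young libraries, a log2 ratio of 4.62 (SE 0.08, adjusted p 1.0e-11). Csf1 (ENSMUSG00000014599), its ligand, was at 1437, 1426 and 1454 CPM in the Aged libraries, against 1695, 1687 and 1574 CPM in the Young libraries, a log2 ratio of -0.21 (SE 0.05, adjusted p 0.00393). The receptor was thus mostly a transcript of Aged, while the ligand was abundant in both groups and slightly lower in Aged. Csf2rb, the shared beta chain of the receptors for GM-CSF, interleukin 3 and interleukin 5, was at 179 ± 3.66 CPM in Aged and 2.07 ± 0.329 CPM in Young, and its close copy Csf2rb2 at 89.7 ± 4.44 CPM in Aged and 0.381 ± 0.0916 CPM in Young, and reads may be split between these copies.

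Genes of lipid mediator synthesis also moved both ways. Of 21 tested genes of prostaglandin and leukotriene synthesis, 11 were called higher and 3 lower (1 lower without Aged replicate 1 or 2). Of the 11 at 10 CPM or more in Young, 5 were called higher and 2 lower, against 16.7% and 27.5% of all such genes. Ptges (ENSMUSG00000050737), which makes prostaglandin E, was at 587, 598 and 607 CPM in the Aged libraries, against 249.7, 258 and 277 CPM in the Young libraries, a log2 ratio of 1.18 (SE 0.05, adjusted p 3.1e-08). Hpgd (ENSMUSG00000031613), which breaks prostaglandin E down, was at 9.0, 10.5 and 7.80 CPM in the Aged libraries, against 22.9, 21.0 and 24.9 CPM in the Young libraries, a log2 ratio of -1.34 (SE 0.11, adjusted p 5.7e-06). The enzyme of synthesis was higher and that of breakdown lower in all Aged libraries than in all Young libraries. Alox5ap, which presents arachidonic acid for leukotriene synthesis, was at 31.3 ± 1.51 CPM in Aged and 0.165 ± 0.155 CPM in Young. Hpgds, the prostaglandin D synthase of macrophages and mast cells, was at 23.9 ± 0.686 CPM in Aged and 0.249 ± 0.0962 CPM in Young. Ltc4s and Lta4h, later steps of the leukotriene path, had calls lower in Aged that were lost in several alternatives.

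Contractile genes were lower in Aged. Actin genes of fibroblasts and muscle are switched on by serum response factor (SRF) when actin filaments assemble, and many of them by the stretch-sensing factor YAP as well. All 29 listed cytoskeletal targets of SRF and YAP were tested. In Aged, 23 were called lower and 1 higher, against 19% and 21.4% of all genes, with a median log2 ratio of -0.47. Among the 28 at 10 CPM or more in Young, 22 were called lower, against 27.5% of all genes at that level. Myl9 (ENSMUSG00000067818), the light chain that switches smooth muscle myosin on, was at 51.8, 55.7 and 59.1 CPM in the Aged libraries, against 178, 171 and 182 CPM in the Young libraries, a log2 ratio of -1.69 (SE 0.06, adjusted p 7.1e-09). Lmod1 (ENSMUSG00000048096), which starts actin filaments in smooth muscle, was at 7.28, 7.56 and 8.53 CPM in the Aged libraries, against 30.6, 31.0 and 30.5 CPM in the Young libraries, a log2 ratio of -2.00 (SE 0.08, adjusted p 1.9e-08). Tpm1 (ENSMUSG00000032366), a tropomyosin that coats actin filaments, was at 608, 596 and 624 CPM in the Aged libraries, against 1153, 1134 and 1224 CPM in the Young libraries, a log2 ratio of -0.95 (SE 0.05, adjusted p 8.5e-08). Young libraries were above Aged libraries without overlap in these 3 genes. Filip1l, a relative of the filamin A-interacting protein and the member called higher, was at 242 ± 2.93 CPM in Aged and 163 ± 16.7 CPM in Young, a log2 ratio of 0.56 (SE 0.07, adjusted p 1.1e-04). The smooth muscle and pericyte markers summed to 540 to 554 CPM in Aged libraries and 2160 to 2310 CPM in Young libraries, yet Rgs5, a pericyte gene, was higher, with 7.25 ± 0.664 CPM in Aged and 3.10 ± 0.262 CPM in Young, a log2 ratio of 1.21 (SE 0.15, adjusted p 1.0e-04).

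Adhesion receptors of fibroblasts moved both ways. Of 25 integrins, cadherins and related genes tested, 12 were called lower and 3 higher, against 19% and 21.4% of all genes. Itgb1 (ENSMUSG00000025809), the beta chain of most matrix-binding integrins, was at 1321, 1306 and 1324 CPM in the Aged libraries, against 1995, 1856 and 1827 CPM in the Young libraries, a log2 ratio of -0.54 (SE 0.05, adjusted p 6.8e-06). Itga11 (ENSMUSG00000032243), a collagen-binding chain of myofibroblasts, was at 3.98, 4.85 and 5.09 CPM in the Aged libraries, against 19.7, 18.3 and 11.9 CPM in the Young libraries, a log2 ratio of -1.87 (SE 0.19, adjusted p 2.2e-05). Thy1, a surface glycoprotein of fibroblasts, was at 158 ± 5.37 CPM in Aged and 218 ± 4.63 CPM in Young. Other chains that bind collagen or matrix were higher. Itga2, a collagen-binding chain, was at 37.6 ± 0.615 CPM in Aged and 17.7 ± 1.21 CPM in Young. Itgb3, the beta chain of the vitronectin receptor, was at 34.8 ± 2.55 CPM in Aged and 16.1 ± 1.44 CPM in Young.

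Genes of proteoglycans and matricellular proteins were mostly lower. Of 30 listed proteoglycans and matricellular proteins, which tune how cells meet the matrix, 28 were tested, 16 were called lower and 6 higher (3 higher without Aged replicate 3), with a median of -0.61. Of the 18 at 10 CPM or more in Young, 11 were called lower and 5 higher, against 27.5% and 16.7% of all such genes. Ccn5 (ENSMUSG00000027656), a matricellular protein of smooth muscle, was at 102, 106 and 110.3 CPM in the Aged libraries, against 327, 313 and 327 CPM in the Young libraries, a log2 ratio of -1.62 (SE 0.05, adjusted p 2.1e-09). Ccn2 (ENSMUSG00000019997), connective tissue growth factor and a target of YAP, was at 400.3, 396 and 386 CPM in the Aged libraries, against 761, 806 and 796 CPM in the Young libraries, a log2 ratio of -1.01 (SE 0.05, adjusted p 3.7e-08). For both CCN genes, all Aged libraries lay below all Young libraries. Smoc2, a calcium-binding matrix protein, was higher, with 61.5 ± 3.27 CPM in Aged and 41.5 ± 1.02 CPM in Young, a log2 ratio of 0.55 (SE 0.06, adjusted p 5.5e-05). Among 27 genes that process and cross-link collagen, 13 were called lower and 8 higher, with a median of -0.22. Loxl3 (ENSMUSG00000000693), a lysyl oxidase that cross-links collagen and elastin, was at 73.4, 75.8 and 76.4 CPM in the Aged libraries, against 149, 150.2 and 138 CPM in the Young libraries, a log2 ratio of -0.97 (SE 0.06, adjusted p 2.5e-07). Serpinh1, the collagen chaperone, was at 821 ± 11.9 CPM in Aged and 1159 ± 23.6 CPM in Young. Loxl1, the oxidase tied to elastin, was at 232 ± 6.88 CPM in Aged and 347 ± 10.7 CPM in Young. The hydroxylases named here were higher. P4ha2, a prolyl hydroxylase of collagen, was at 222 ± 1.57 CPM in Aged and 144 ± 3.09 CPM in Young, a log2 ratio of 0.61 (SE 0.05, adjusted p 3.2e-06). Plod2, a lysyl hydroxylase, was at 199 ± 7.36 CPM in Aged and 120.4 ± 9.06 CPM in Young, a log2 ratio of 0.71 (SE 0.06, adjusted p 8.8e-06).

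Basement membranes, the sheets under epithelium and around muscle, gave 8 genes called lower and 6 higher among 24 tested, and 13 lower without Young replicate 3. Over all genes, 19% were called lower and 21.4% higher. Nid2 (ENSMUSG00000021806), nidogen 2, which links laminin to collagen IV, was at 12.2, 13.5 and 14.4 CPM in the Aged libraries, against 29.1, 31.0 and 28.7 CPM in the Young libraries, a log2 ratio of -1.16 (SE 0.08, adjusted p 1.5e-06). Col8a1, a network collagen of vessels, was at 149 ± 1.62 CPM in Aged and 294 ± 32.8 CPM in Young, a log2 ratio of -0.99 (SE 0.08, adjusted p 2.1e-06). Col18a1, whose fragment is endostatin, was higher, with 362 ± 9.28 CPM in Aged and 220 ± 12.9 CPM in Young, a log2 ratio of 0.70 (SE 0.06, adjusted p 3.2e-06), so this list had no common direction. Lamb1, a laminin chain, was at 512 ± 11 CPM in Aged and 496 ± 33.1 CPM in Young and was not called. Of 27 tested metalloproteinases and inhibitors, 12 were called higher and 10 lower, against 21.4% and 19% of all genes. Mmp9 (ENSMUSG00000017737), the gelatinase of leukocytes, was at 99.3, 104 and 103 CPM in the Aged libraries, against 9.09, 9.61 and 8.48 CPM in the Young libraries, a log2 ratio of 3.48 (SE 0.07, adjusted p 4.6e-11).

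TGF-beta drives myofibroblasts, and bone morphogenetic proteins are its relatives. Of 37 tested genes of these paths, 13 were called lower and 4 higher, with a median of -0.11. All these calls fell among the 32 members at 10 CPM or more in Young, where 27.5% of all genes were called lower and 16.7% higher. Tgfb3 (ENSMUSG00000021253), a ligand, was at 42.3, 43.0 and 39.1 CPM in the Aged libraries, against 98.8, 101 and 95.7 CPM in the Young libraries, a log2 ratio of -1.26 (SE 0.06, adjusted p 5.6e-08). Bmp4 (ENSMUSG00000021835), a ligand of lung mesenchyme, was at 13.2, 11.9 and 15.3 CPM in the Aged libraries, against 42.1, 40.1 and 40.0 CPM in the Young libraries, a log2 ratio of -1.61 (SE 0.09, adjusted p 2.0e-07). Gdf6, a ligand of joint formation, was at 8.97 ± 0.335 CPM in Aged and 28.6 ± 2.16 CPM in Young. These 3 ligands were thus lower, while the receptor Tgfbr1 was higher, with 41.0 ± 1.45 CPM in Aged and 24.7 ± 2.08 CPM in Young, a log2 ratio of 0.72 (SE 0.08, adjusted p 3.3e-05). Gdf10, a divergent ligand of the family, was higher, with 56.5 ± 2.99 CPM in Aged and 24.8 ± 0.531 CPM in Young. Ltbp4, which holds latent TGF-beta in the matrix, was at 24.1 ± 2.11 CPM in Aged and 12.5 ± 0.50 CPM in Young.

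WNT and hedgehog proteins pattern mesenchyme and feed epithelial stem cells. Of 40 tested genes, 16 were called lower and 3 higher, against 19% and 21.4% of all genes, with a median of -0.20. Sfrp1 (ENSMUSG00000031548), a secreted WNT antagonist, was at 12.8, 15.0 and 14.3 CPM in the Aged libraries, against 61.0, 58.9 and 51.9 CPM in the Young libraries, a log2 ratio of -2.04 (SE 0.09, adjusted p 2.3e-08). Rspo2 (ENSMUSG00000051920), an R-spondin that amplifies WNT signals, was at 9.34, 9.71 and 11.5 CPM in the Aged libraries, against 27.4, 25.0 and 23 CPM in the Young libraries, a log2 ratio of -1.32 (SE 0.10, adjusted p 3.1e-06). Antagonist and amplifier were both lower. Ptch1, the hedgehog receptor and a target of the path, was higher, with 27.4 ± 1.66 CPM in Aged and 17.2 ± 4.66 CPM in Young, a log2 ratio of 0.66 (SE 0.16, adjusted p 0.0079).

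Growth factor genes moved both ways. Of 28 tested genes of PDGF, FGF, EGF and HGF signalling, 11 were called lower and 6 higher, against 19% and 21.4% of all genes. Areg (ENSMUSG00000029378), amphiregulin, an EGF receptor ligand of immune and epithelial cells, was at 37.4, 35.8 and 34.1 CPM in the Aged libraries, against 6.71, 7.38 and 7.86 CPM in the Young libraries, a log2 ratio of 2.28 (SE 0.09, adjusted p 7.1e-09). Pdgfb, a PDGF ligand of endothelium, platelets and macrophages, was at 7.53 ± 0.684 CPM in Aged and 0.927 ± 0.283 CPM in Young, a log2 ratio of 2.99 (SE 0.22, adjusted p 1.6e-06). Pdgfrb (ENSMUSG00000024620), its receptor on mesenchymal cells, was at 122, 125 and 123 CPM in the Aged libraries, against 249, 253 and 215 CPM in the Young libraries, a log2 ratio of -0.97 (SE 0.07, adjusted p 9.2e-07). Ligand and receptor thus moved in opposite directions. Igf1 (ENSMUSG00000020053), insulin-like growth factor 1, which macrophages and fibroblasts make, was at 32.1, 30.8 and 32.2 CPM in the Aged libraries, against 6.21, 6.31 and 6.78 CPM in the Young libraries, a log2 ratio of 2.29 (SE 0.08, adjusted p 4.0e-09). Among the 13 tested genes of the IGF system, 3 were called higher and 4 lower, and 7 lower without Young replicate 3. Igfbp7, a binding protein of the matrix, was at 366 ± 11.3 CPM in Aged and 568 ± 31.1 CPM in Young, a log2 ratio of -0.65 (SE 0.05, adjusted p 4.9e-06). Of 18 tested imprinted growth genes, 4 were called higher and 5 lower, beside 21.4% and 19% of all genes. Peg10 was higher, with 19.6 ± 1.08 CPM in Aged and 8.29 ± 0.550 CPM in Young, a log2 ratio of 1.23 (SE 0.09, adjusted p 2.1e-06). The noncoding RNA H19 was lower, with 42.4 ± 1.22 CPM in Aged and 92.9 ± 0.921 CPM in Young, a log2 ratio of -1.15 (SE 0.06, adjusted p 6.6e-08).

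Transcription factors give mesenchyme its identity. Of 29 listed factors of lung mesenchyme, 27 were tested, 9 were called lower (33.3%, against 19% of all genes) and 2 higher, with a median of -0.26, and 1 was called higher when any 1 Aged library or Young replicate 2 was left out. Osr1 (ENSMUSG00000048387), a zinc finger factor of connective tissue, was at 9.34, 8.76 and 8.87 CPM in the Aged libraries, against 20.1, 21.0 and 21.8 CPM in the Young libraries, a log2 ratio of -1.23 (SE 0.08, adjusted p 8.1e-07). Prrx2, a homeobox factor of mesenchyme, was at 77.2 ± 5.66 CPM in Aged and 127 ± 11.1 CPM in Young, a log2 ratio of -0.73 (SE 0.08, adjusted p 3.4e-05). Ebf1, a factor of B cells and stroma, was at 24.5 ± 2.08 CPM in Aged and 36.7 ± 2.52 CPM in Young, a log2 ratio of -0.60 (SE 0.08, adjusted p 2.6e-04). Hox genes record position along the body axis. Of 39 listed Hox genes, 35 were tested, 15 were called lower and 2 higher (1 higher without Aged replicate 1 or 2 or Young replicate 1), with a median of -0.43. Over all genes, 19% were called lower and 21.4% higher. Hoxc5 (ENSMUSG00000022485) was at 5.40, 6.53 and 5.43 CPM in the Aged libraries, against 12.6, 10.2 and 12.4 CPM in the Young libraries, a log2 ratio of -1.03 (SE 0.13, adjusted p 1.2e-04), Hoxc8 at 11.6 ± 1.22 CPM in Aged and 19.5 ± 1.61 CPM in Young, and Hoxc10 at 10 ± 0.922 CPM in Aged and 15.1 ± 0.136 CPM in Young. Hoxd12 was higher, with 3.97 ± 0.825 CPM in Aged and 1.88 ± 0.417 CPM in Young, a log2 ratio of 1.06 (SE 0.24, adjusted p 0.0051), and the call of Hoxd11 was lost in 4 alternatives. Hoxa5, a gene of lung development, was at 2.45 ± 0.805 CPM in Aged and 4.03 ± 0.681 CPM in Young, a log2 ratio of -0.72 (SE 0.25, adjusted p 0.0418), and its call was lost without Aged replicate 2 or 3 or Young replicate 1 (adjusted p 0.119 to 0.142).

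Genes of cholesterol synthesis were lower in Aged. Cells build cholesterol from acetyl-CoA through mevalonate, and the factor SREBP2 switches the path on when sterols run low. Of 25 genes of synthesis and uptake, all tested, 21 were called lower in Aged and 0 higher (0 at an unadjusted p under 0.05 in edgeR and 0 with DESeq2), with a median log2 ratio of -0.46. Cyp51 (ENSMUSG00000001467), which removes a methyl group from lanosterol, was at 40.2, 38.9 and 39.5 CPM in the Aged libraries, against 76.3, 79.9 and 80.8 CPM in the Young libraries, a log2 ratio of -1.01 (SE 0.06, adjusted p 2.2e-07). Mvk (ENSMUSG00000041939), mevalonate kinase, was at 18.7, 17.1 and 17.2 CPM in the Aged libraries, against 30.8, 31.7 and 32.7 CPM in the Young libraries, a log2 ratio of -0.86 (SE 0.07, adjusted p 5.5e-06). Idi1, which isomerises isopentenyl diphosphate, was at 32.3 ± 1.26 CPM in Aged and 55.9 ± 2.07 CPM in Young, a log2 ratio of -0.81 (SE 0.06, adjusted p 3.1e-06). Among the 23 members at 10 CPM or more in Young, 20 were called lower, against 27.5% of all genes at that level. Abcg1, which exports cholesterol from macrophages, was higher, with 66.8 ± 2.68 CPM in Aged and 10.7 ± 1.10 CPM in Young, a log2 ratio of 2.63 (SE 0.08, adjusted p 1.8e-09).

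Fatty acid genes moved both ways. Of 28 tested genes, 11 were called higher and 5 lower (11 lower without Young replicate 3). Of the 26 at 10 CPM or more in Young, 10 were called higher and 5 lower, against 16.7% and 27.5% of all such genes. Plin2 (ENSMUSG00000028494), the coat protein of lipid droplets, was at 1233, 1222 and 1234 CPM in the Aged libraries, against 459, 475 and 512 CPM in the Young libraries, a log2 ratio of 1.34 (SE 0.05, adjusted p 8.3e-09). Lpl (ENSMUSG00000015568), the lipase that frees fatty acids from lipoproteins, was at 129, 124 and 125 CPM in the Aged libraries, against 20.9, 20.0 and 17.7 CPM in the Young libraries, a log2 ratio of 2.67 (SE 0.07, adjusted p 4.2e-10). Both of these rose. Plin4, a droplet protein of fat and muscle, was lower, with 4.02 ± 0.429 CPM in Aged and 10.5 ± 1.28 CPM in Young, a log2 ratio of -1.40 (SE 0.14, adjusted p 2.1e-05). Of 23 carriers of glucose, lactate and amino acids, 14 were called higher and 3 lower (1 lower without Aged replicate 1). In Young, 17 of these were at 10 CPM or more, 9 called higher and 3 lower, against the same 16.7% and 27.5%. Slc7a8, a carrier of large neutral amino acids, was at 33.8 ± 2.81 CPM in Aged and 1.34 ± 0.391 CPM in Young, a log2 ratio of 4.63 (SE 0.15, adjusted p 2.4e-09), whereas Slc7a6, a carrier of basic and neutral amino acids, was slightly lower, with 40.3 ± 1.49 CPM in Aged and 48.5 ± 3.17 CPM in Young.

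Genes of the hypoxia response, which the factor HIF1 switches on at low oxygen, were mostly higher. Of 21 tested, 17 were called higher, against 21.4% of all genes, and 1 lower, with a median of 0.54. Among the 19 members at 10 CPM or more in Young, 15 were called higher, against 16.7% of all genes at that level. Ndrg1 (ENSMUSG00000005125), a stress-induced growth regulator, was at 122, 114 and 116 CPM in the Aged libraries, against 24.1, 26.5 and 24.0 CPM in the Young libraries, a log2 ratio of 2.22 (SE 0.07, adjusted p 9.4e-10). Egln3 (ENSMUSG00000035105), a prolyl hydroxylase that marks HIF for breakdown, was at 63.4, 67.0 and 69.7 CPM in the Aged libraries, against 15.3, 16.2 and 15.3 CPM in the Young libraries, a log2 ratio of 2.08 (SE 0.07, adjusted p 2.4e-09). Bnip3 (ENSMUSG00000078566), which directs mitochondria to autophagy, was at 272, 257 and 256 CPM in the Aged libraries, against 90.1, 89.7 and 105 CPM in the Young libraries, a log2 ratio of 1.45 (SE 0.07, adjusted p 5.1e-08). These 3 targets had no overlap between groups. Bnip3l, a close relative of Bnip3, rose by less, a log2 ratio of 0.41 (SE 0.05, adjusted p 1.6e-04). Anxa2, the member called lower, was at 1094 ± 11.5 CPM in Aged and 1229 ± 106 CPM in Young, and its call was lost when any 1 Aged library was left out (adjusted p 0.0943 to 0.125). Pdk4, the kinase that turns pyruvate dehydrogenase off, was at 79.3, 75.6 and 71.2 CPM in the Aged libraries, against 26.1, 26.6 and 23.4 CPM in the Young libraries, a log2 ratio of 1.56 (SE 0.07, adjusted p 4.1e-08).

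Serine feeds the one-carbon units that cells use to build nucleotides. Of 18 tested genes of serine, glycine and one-carbon metabolism, 7 were called lower and 2 higher (1 higher without Aged replicate 1), against 19% and 21.4% of all genes. Phgdh (ENSMUSG00000053398), the first enzyme of serine synthesis, was at 110.3, 118 and 122 CPM in the Aged libraries, against 181, 184 and 208 CPM in the Young libraries, a log2 ratio of -0.72 (SE 0.07, adjusted p 1.4e-05). Psat1, the next enzyme, was at 90.3 ± 2.96 CPM in Aged and 119.8 ± 4.80 CPM in Young. Mthfd1, a folate enzyme of the cytosol, was at 61.5 ± 2.36 CPM in Aged and 99.4 ± 4.84 CPM in Young. ATF4, the factor that controls these enzymes under stress, has further targets, and of 18 tested 5 were called higher and 5 lower (3 higher without Aged replicate 2). Atf3 (ENSMUSG00000026628), a stress-induced factor, was at 61.0, 58.9 and 63.3 CPM in the Aged libraries, against 5.50, 7.10 and 6.27 CPM in the Young libraries, a log2 ratio of 3.26 (SE 0.09, adjusted p 6.7e-10). Trib3, a pseudokinase of the same response, was at 36.3 ± 1.52 CPM in Aged and 23.1 ± 0.768 CPM in Young, while Ddit3, the death-linked factor CHOP, was lower, with 49.4 ± 2.09 CPM in Aged and 71.4 ± 6.89 CPM in Young, a log2 ratio of -0.54 (SE 0.08, adjusted p 2.8e-04). The targets of ATF4 thus had no common direction.

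Genes for making and removing proteins were lower by small amounts. Of 67 mitochondrial ribosome genes, all at 10 CPM or more in Young, 37 were called lower and 0 higher (0 at an unadjusted p under 0.05 in edgeR and 0 with DESeq2), with a median of -0.28, against 27.5% lower among all genes at that level. Mrps7 (ENSMUSG00000046756) was at 48.8, 48.0 and 48.9 CPM in the Aged libraries, against 63.2, 62.7 and 64.3 CPM in the Young libraries, a log2 ratio of -0.40 (SE 0.06, adjusted p 2.5e-04), Mrpl17 at 50.8 ± 1.37 CPM in Aged and 71.7 ± 7.21 CPM in Young, and Mrpl16 at 20.3 ± 1.86 CPM in Aged and 32.7 ± 6.13 CPM in Young. With any 1 Aged library left out, 20 to 23 were called lower. Of 31 proteasome genes, whose products cut tagged proteins, 20 were called lower and 0 higher (likewise 0 at an unadjusted p under 0.05 in edgeR and 0 with DESeq2), with a median of -0.23, and 11 to 12 were called lower without Aged replicate 1 or 2 and 1 higher without Young replicate 3. Psmb7, a catalytic subunit, was at 117, 118 and 113 CPM in the Aged libraries, against 149, 145 and 167 CPM in the Young libraries, a log2 ratio of -0.42 (SE 0.06, adjusted p 5.2e-04). The mitochondrial gene mt-Co1, encoded by the organelle itself, was higher, with 5183, 5169 and 5226 CPM in the Aged libraries, against 3872, 3799 and 4069 CPM in the Young libraries, unlike the nuclear genes for its ribosome.

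Chaperone genes moved both ways. Of 23 chaperones and unfolded protein response genes of the endoplasmic reticulum, 11 were called lower and 4 higher, against 27.5% and 16.7% of all genes at their level of 10 CPM or more in Young, and 5 lower when any 1 Aged library was left out. Hspa5 (ENSMUSG00000026864), the chaperone BiP, was at 837, 819 and 821 CPM in the Aged libraries, against 965, 949 and 1061 CPM in the Young libraries, a log2 ratio of -0.28 (SE 0.05, adjusted p 0.00196). Hsp90b1, its HSP90 partner, was at 978 ± 15.3 CPM in Aged and 1141 ± 27.2 CPM in Young. Ern1 (ENSMUSG00000020715), the sensor IRE1, was higher, with 66.5, 65.6 and 64.5 CPM in the Aged libraries, against 43.5, 42.2 and 32.8 CPM in the Young libraries, a log2 ratio of 0.72 (SE 0.09, adjusted p 1.6e-04). The sensor thus differed in sign from Hspa5 and Hsp90b1, while Dnajb9 and Edem1 of the same list were also called higher. Of 22 heat shock proteins, 10 were called lower (6 without Aged replicate 1 or 3) and 4 higher (2 without Aged replicate 1 or Young replicate 1). Hspd1 and Hspe1, the chaperonin pair of mitochondria, were lower, with 375 ± 11.1 CPM in Aged and 532 ± 26.8 CPM in Young for Hspd1 and 101 ± 1.56 CPM in Aged and 153 ± 17.1 CPM in Young for Hspe1. Hspa1b, a stress-induced HSP70 gene with a near-identical copy, Hspa1a, was higher, with 62.8 ± 2.91 CPM in Aged and 44.3 ± 1.21 CPM in Young, and reads may be split between these copies.

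Iron genes rose beyond ferritin. Of 19 tested genes of iron and heme handling, 14 were called higher and 2 lower (1 lower when any 1 Aged library or Young replicate 1 was left out). Of the 15 at 10 CPM or more in Young, 10 were called higher and 2 lower, against 16.7% and 27.5% of all such genes. Slc11a1 (ENSMUSG00000026177), which pumps iron out of phagosomes, was at 113, 110 and 110.3 CPM in the Aged libraries, against 0.555, 1.16 and 0.308 CPM in the Young libraries, a log2 ratio of 7.31 (SE 0.18, adjusted p 1.9e-10). Trf (ENSMUSG00000032554), transferrin, the iron carrier of plasma, was at 52.9, 50.9 and 49.7 CPM in the Aged libraries, against 0.606, 0.882 and 0.925 CPM in the Young libraries, a log2 ratio of 5.97 (SE 0.12, adjusted p 4.0e-11). Steap3, a reductase of endosomal iron, was lower, with 51.2 ± 2.06 CPM in Aged and 77.9 ± 2.34 CPM in Young, a log2 ratio of -0.62 (SE 0.06, adjusted p 1.6e-05). Of 28 targets of the antioxidant factor NRF2 and genes of glutathione metabolism, 15 were called higher and 4 lower, with a median of 0.33. Over all genes, 21.4% were called higher and 19% lower. Gclm (ENSMUSG00000028124), a subunit of the first enzyme of glutathione synthesis, was at 189, 182 and 175 CPM in the Aged libraries, against 93.7, 94.3 and 99.2 CPM in the Young libraries, a log2 ratio of 0.91 (SE 0.05, adjusted p 3.2e-07). Gss, the second enzyme, was lower, with 94.8 ± 2.52 CPM in Aged and 125 ± 6.80 CPM in Young, a log2 ratio of -0.41 (SE 0.06, adjusted p 3.1e-04), so successive steps of the path differed. Gsr, which regenerates glutathione, was at 48.5 ± 2.61 CPM in Aged and 22.2 ± 1.68 CPM in Young. Gsto1, a glutathione transferase, was at 308 ± 7.36 CPM in Aged and 502 ± 31.9 CPM in Young.

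Clock genes depend on the time of day at which tissue is taken, which the labels do not give. Arntl (ENSMUSG00000055116), which encodes the activator BMAL1, was at 54.4, 49.5 and 52.3 CPM in the Aged libraries, against 32.7, 30.0 and 25.2 CPM in the Young libraries, a log2 ratio of 0.82 (SE 0.09, adjusted p 4.5e-05). Dbp (ENSMUSG00000059824), an output gene of the clock, was at 13.7, 14.6 and 15.6 CPM in the Aged libraries, against 30.8, 33.7 and 41.8 CPM in the Young libraries, a log2 ratio of -1.30 (SE 0.12, adjusted p 7.8e-06). Arntl and Dbp thus lay on opposite sides, while the clock genes Per1 and Npas2 were called higher, as Arntl was. Per3 and Tef, further clock genes, had log2 ratios of -0.65 and -0.50, and 3 of 20 tested were called higher and 8 lower, with 5 lower without Aged replicate 2. Over all genes, 21.4% were called higher and 19% lower. Immediate early genes, which respond within minutes to growth signals and handling, also went both ways, with 11 of 26 higher and 4 lower, beside the same shares over all genes. Fos (ENSMUSG00000021250) was at 23.9, 23.3 and 27.4 CPM in the Aged libraries, against 6.16, 5.66 and 7.76 CPM in the Young libraries, a log2 ratio of 1.92 (SE 0.12, adjusted p 5.5e-07). Nr4a1 (ENSMUSG00000023034), an orphan nuclear receptor of the same class, was at 20.5, 18.0 and 19.3 CPM in the Aged libraries, against 46.4, 46.7 and 49.2 CPM in the Young libraries, a log2 ratio of -1.31 (SE 0.07, adjusted p 1.6e-07). Egr1, a zinc finger factor, was at 56.1 ± 2.35 CPM in Aged and 88.6 ± 6.66 CPM in Young.

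Genes linked to the nucleus and lysosome of senescent cells, which have left the cell cycle for good, gave 5 of 23 called higher and 5 lower (3 lower when any 1 Aged library was left out), or 21.7% each way, near the shares of 21.4% and 19% over all genes. Lmnb1, the lamin often lost in senescence, was at 24.2, 21.2 and 23.1 CPM in the Aged libraries, against 22.5, 21.2 and 22.7 CPM in the Young libraries and was not called (adjusted p 0.752). Glb1, the source of senescence-associated beta-galactosidase activity, was at 72.5, 71.4 and 66.4 CPM in the Aged libraries, against 60.5, 66.3 and 60.7 CPM in the Young libraries and was not called either (adjusted p 0.083), although it was called higher with the gene-length trend removed (adjusted p = 0.0409). Hmgb2, a chromatin protein of dividing cells, was higher, with 24.9 ± 0.526 CPM in Aged and 20.0 ± 1.47 CPM in Young, a log2 ratio of 0.31 (SE 0.08, adjusted p 0.0101). None of these 3 genes moved by 2-fold. Lmna, the nuclear lamin of stiff tissues, was lower, with 829 ± 19.1 CPM in Aged and 1081 ± 56.5 CPM in Young, a log2 ratio of -0.40 (SE 0.05, adjusted p 1.4e-04). Cdkn2b, an inhibitor of the cell cycle, was lower, with 93.1 ± 2.29 CPM in Aged and 131 ± 8.60 CPM in Young, a log2 ratio of -0.50 (SE 0.06, adjusted p 9.7e-05), and Cdkn1b, another inhibitor, higher, with 18.4 ± 2.47 CPM in Aged and 11.8 ± 1.69 CPM in Young, a log2 ratio of 0.63 (SE 0.13, adjusted p 0.00261). Plaur, the urokinase receptor, was higher, with 128 ± 5.42 CPM in Aged and 91.7 ± 6.37 CPM in Young, a log2 ratio of 0.47 (SE 0.07, adjusted p 2.5e-04). Cdkn1a, the inhibitor p21, was at 945, 936 and 937 CPM in the Aged libraries, against 1064, 1080 and 1118 CPM in the Young libraries, a log2 ratio of -0.22 (SE 0.04, adjusted p 0.00217). Cdkn2a, which encodes p16 and p19, was at 74.0, 76.4 and 73.5 CPM in the Aged libraries, against 108, 119 and 135 CPM in the Young libraries, a log2 ratio of -0.71 (SE 0.08, adjusted p 4.6e-05). Both inhibitors were thus lower in Aged. Il6, an inflammatory cytokine that senescent cells secrete, was at 44.5 ± 0.890 CPM in Aged and 21.5 ± 1.01 CPM in Young, a log2 ratio of 1.04 (SE 0.07, adjusted p 6.1e-07). Of 35 DNA replication genes, 4 were called lower and 0 higher (0 higher at an unadjusted p under 0.05 in edgeR and 0 with DESeq2), with 9 lower and 3 higher without Young replicate 3. Of 26 autophagy genes, 8 were called higher and 5 lower (1 lower without Aged replicate 1 and 3 without Aged replicate 2), against the same shares over all genes. Atg13, a starter of autophagosomes, was at 56.1 ± 2.13 CPM in Aged and 38.6 ± 2.32 CPM in Young, a log2 ratio of 0.53 (SE 0.07, adjusted p 1.2e-04).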

How the data were processed

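Paired reads of RNA from microdissected alveolar cells were turned by the authors into expected counts, that is, estimated counts of reads for every gene, deposited with fractions and without normalisation. The deposited TPM values, scaled by the authors for gene length and depth, and the deposited gene lengths served only to check the tables and the length trend. The processing notes of the submitters name Bowtie 0.12.2 and the build GRCm39 (mm39), and the quantifier and annotation used for the mouse libraries are not given in the sources used here. The sheet names of the tables speak of bleomycin, so the identity of both groups rests on column names and labels. The deposited fold changes and p-values of the authors were not used.

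Counts were rounded, filtered with filterByExpr, scaled by TMM and tested for Aged over Young with the quasi-likelihood test of edgeR 4.0.16 in R 4.3.3 on 6 libraries, with Benjamini-Hochberg adjustment over 16123 genes. CPM were computed on library totals. DESeq2 1.42.0, other scalings, no filter, all 9 libraries in a single fit, removal of the gene-length trend, a replicate block and leaving out each library were alternatives. The code was tested on simulated data. Folds against a group with 0 counts were not given, and a floor of 3 counts is 0.0425 CPM in Aged and 0.0493 CPM in Young.

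Genes named were the 10 largest gains and losses in CPM, the 10 largest folds each way at 10 CPM or more in Young, the 8 largest folds each way among listed transcription factors, up to 3 called members each way of the 48 gene lists and 20 marker lists by lowest p, any member of lists of 12 or fewer, and Pdk4, Cdkn1a, Cdkn2a, Il6, Lmnb1, Hmgb2, Glb1, Lamb1, Xist and 4 Y-linked genes. Members and lists were chosen with earlier results of these data known. Tcf21, Inmt, Hoxa13, Hoxd13, Scgb1a1 and the markers too low to be tested were chosen after their values were seen. Some genes that this rule names are not reported here. No set test was run. Promoters came from RefSeq on GRCm38.p6, an older build than that of the files, and were matched by symbol.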

Additional observations from a re-analysis of the deposited data

How the results depend on the processing

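The 4 counts of calls kept within 1.5 times of their main value under all alternatives. Genes called higher numbered 3451 in the main setting, 2972 with DESeq2, 3248 with a replicate block and 2723 to 3895 with 1 library left out. Genes called lower numbered 3060, 3009 with DESeq2, 2833 with the replicate block and 2104 to 3845 with 1 library left out. At 2-fold or more, 1386 to 1607 genes were called higher and 249 to 284 lower with 1 library left out. Libraries with the same replicate number were not paired, since their deviations from the group means correlated by 0.0485, -0.0032 and 0.0218, so the block carries only a number. Of 370 named genes, 0 changed direction, 36 lost their call in at least 1 alternative and 5 gained one, and DESeq2 lost 16 of these calls. The limits are 3 libraries a group from combined cells, the larger spread of Young and its replicate 3, a level in Young that the share of calls follows, and genes with near-identical copies.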
